A study of Homo sapiens with 5 samples.

Results

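Proteins of the BCL2 family control whether the outer membrane of the mitochondrion stays closed or opens during apoptosis, and 10 of its genes were examined in RPE-1 cells after loss of FAM53C. They were chosen by symbol, as BAX, BAK1, BBC3, PMAIP1, BCL2L11, BID, BAD, BCL2, BCL2L1 and MCL1, and all 10 were found among the 64252 gene rows of the count table. RPE-1 is an immortalized human retinal pigment epithelial line. Its cells, labelled wild-type (WT) in the control group and FAM53C KD in the other, were transfected with an ON-TARGET control siRNA (siCtrl, 3 libraries) or with a pool of siRNAs against FAM53C (siFAM53C, 2 libraries), each at 5 µM, and polyA RNA was collected 48 hr later. The control received a different siRNA, so an effect of losing FAM53C and an effect of the pool's own sequences on other transcripts cannot be told apart. The study's methods speak of duplicates per condition and do not say which controls entered its comparison, so all 3 deposited siCtrl libraries were used. The libraries belong to a study of the cell cycle in which p21, a cell cycle inhibitor, was raised after the knockdown. They served to see if its gene, CDKN1A, responds at the level of RNA. The libraries held 24099968, 19694561 and 19260124 counts on genes in siCtrl replicates 1 to 3, and 25615415 and 22993116 in siFAM53C replicates 1 and 2. Nothing in the labels says that the libraries came from separate cultures, so the p-values measure only the spread between these libraries, which may be technical.

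The family works through contacts between its proteins. The effectors BAX and BAK1 form pores in the outer mitochondrial membrane, the pro-survival proteins BCL2, BCL2L1 (BCL-XL) and MCL1 hold them and their activators in check, and the BH3-only proteins BBC3 (PUMA), PMAIP1 (NOXA), BCL2L11 (BIM), BID and BAD relay stress signals by binding to the pro-survival proteins or to the effectors. Much of the control over the family lies in the stability, cleavage and phosphorylation of the proteins, which RNA counts do not measure.

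One member differed past the threshold. PMAIP1 was lower in siFAM53C, at 0.501 times its control level by the fitted fold change, while no member was called higher. Values are given as CPM, counts scaled to a common library total with TMM factors. The conditions were compared gene by gene in edgeR (quasi-likelihood), p-values were adjusted over 15341 genes by the Benjamini-Hochberg procedure, and a gene was called at an adjusted p under 0.05. All 10 members had enough counts to be tested. Of them 1 was called lower, where 3.47% of all tested genes were, and 0 were called higher, where 0.489% of all tested genes were (1 member, BAK1, was higher at an unadjusted p under 0.05, as were 6.61% of all tested genes). At that unadjusted threshold 1 member was lower, where 10.5% of all tested genes were. DESeq2 also called 1 member lower and 0 higher, against 6.98% and 2.02% of the genes it tested. The median log2 fold change of the members was -0.030, with 5 above 0 and 5 below, and that of all tested genes was 0.016.

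The targeted gene, FAM53C, was read first. It had 60.9, 59.7 and 57.6 CPM in siCtrl and 14.2 and 22.3 CPM in siFAM53C. The fitted log2 fold change was -1.71 (SE 0.19, edgeR adjusted p = 0.003625). Both siFAM53C libraries were far below every control. In bulk RNA, fewer cells with a transcript and less of it per cell cannot be told apart. Of the 6 markers of the line, the mean siCtrl values were 259, 168 and 8.05 CPM for the epithelial keratins KRT8, KRT18 and KRT7, 3907 CPM for the mesenchymal filament VIM, 327 CPM for the mesenchymal cadherin CDH2 and 6.57 CPM for TERT, so epithelial and mesenchymal genes were both expressed. None of the 6 was called in edgeR or in DESeq2 (1 was lower and 1 higher without adjustment), but the groups of KRT8 (0.32, adjusted p = 0.2225) and CDH2 (-0.44, adjusted p = 0.2369) did not overlap, and a model that includes the library sides described next called both (edgeR adjusted p = 0.01157 and 0.0002967). Over all tested genes, 16.7% had all siFAM53C libraries above all controls and 18.8% had them below. The model with the sides called 6.76% higher and 10.7% lower. The part of KRT8 and CDH2 in the other results was not tested. Of 8 genes of differentiated retinal pigment epithelium, 4 had enough counts to be tested. RPE65 had 0 counts in every library, which allows up to 3 counts or 0.156 CPM in the smallest one (counting error only), whereas the transcription factors MITF and OTX2 had 40.1 and 16.0 CPM in siCtrl. The 7 markers of other cell types (PTPRC, CD3E, CD14, PECAM1, CDH5, EPCAM and ALB) summed to between 0.491 and 1.44 CPM per library, with CD3E, CDH5 and ALB at 0 counts throughout, and PECAM1 had the highest mean of them.

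The libraries of a condition did not resemble each other equally, and several family members were among the genes that differed. Along the leading principal component (39.8% of the variance in log2 CPM), the scores of the siCtrl libraries were -31.5, -47.4 and 33.7 and those of the siFAM53C libraries 0.26 and 44.9, so that siCtrl replicate 3 and siFAM53C replicate 2 stood together. These 2 libraries also share the number 3 in the column names of the count table, where siFAM53C replicate 2 of the titles is numbered 3. The labels do not say what the number stands for. siFAM53C replicate 1 was grouped with siCtrl replicates 1 and 2, although its score (0.26) lay between those of the controls. Each member is also given inside the 2 sides of this split. The first value is siFAM53C replicate 1 less the mean of siCtrl replicates 1 and 2. The second is siFAM53C replicate 2 less siCtrl replicate 3. A model that includes the side was also fitted, with the split already known. Because the sides were read from these same libraries, its p-values can be too small. Its calls, here and below, are a description only.

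**Figure D1:**
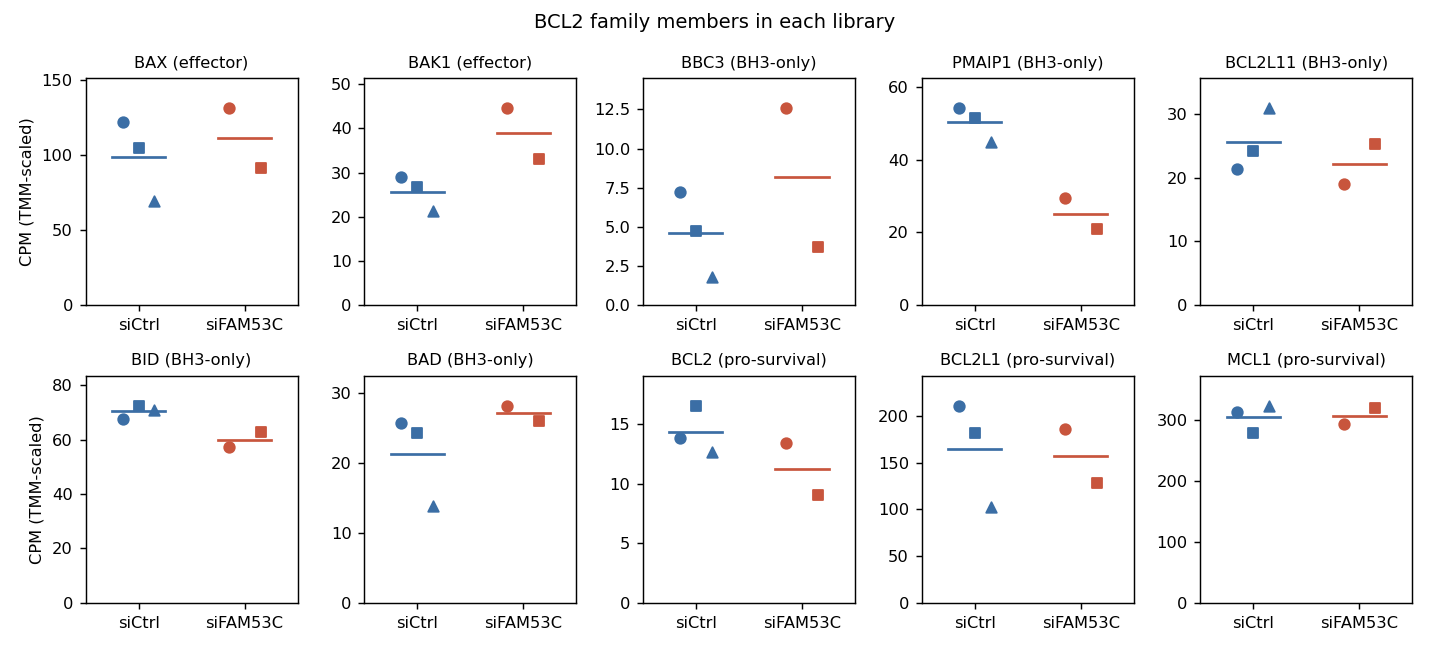
CPM of each of the 10 members (vertical axes, from 0) in the 3 siCtrl and 2 siFAM53C libraries. Circles, squares and triangles are replicates 1, 2 and 3, and horizontal lines are means. PMAIP1 sat between 20.8 and 29.4 in siFAM53C, under all controls, while BBC3 spanned 1.78 to 7.26 within siCtrl alone.

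Among the BH3-only genes, PMAIP1 (ENSG00000141682, chromosome 18 of GRCh38, 59899996 to 59904305, plus strand) stood out. Its protein, NOXA, binds mainly to MCL1. It had 1276, 985 and 858 counts in siCtrl and 778 and 491 in siFAM53C. On the CPM scale this was 54.2, 51.5 and 45.0 in siCtrl and 29.4 and 20.8 in siFAM53C, and the groups did not overlap. The mean fell from 50.2 ± 4.75 (SD, n = 3) to 25.1 ± 6.06 (SD, n = 2) CPM, a log2 fold change of -0.998 (SE 0.17, 95% interval -1.40 to -0.60, edgeR adjusted p = 0.0221). Inside the 2 sides the differences were -0.84 and -1.11. The direction held in all 17 alternative fits, but the call was lost without siCtrl replicate 1, siCtrl replicate 2 or siFAM53C replicate 2, where the edgeR adjusted p was 0.1115, 0.1175 and 0.1334.

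The promoter of PMAIP1 is shown because this was the member that differed. RefSeq gives 300 bases of it on GRCh38.p14, chr18:59899746-59900045 on the plus strand, from 250 bases before the start of the gene to 50 after. It is rich in G and C (71.3%) and holds 42 CpG pairs.
PMAIP1 promoter: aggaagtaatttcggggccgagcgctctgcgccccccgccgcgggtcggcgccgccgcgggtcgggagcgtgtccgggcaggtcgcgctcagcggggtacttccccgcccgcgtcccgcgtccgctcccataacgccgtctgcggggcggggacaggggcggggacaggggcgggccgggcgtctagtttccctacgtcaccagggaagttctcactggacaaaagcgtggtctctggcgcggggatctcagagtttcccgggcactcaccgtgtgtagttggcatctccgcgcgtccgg

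BBC3 (ENSG00000105327), which encodes PUMA, had the largest positive value of the 10 members and also their widest spread. Its counts were 171, 90 and 34 in siCtrl and 333 and 88 in siFAM53C, or 7.26, 4.71 and 1.78 CPM against 12.6 and 3.73 CPM. siFAM53C replicate 1 was the highest library, but siFAM53C replicate 2 lay below siCtrl replicates 1 and 2, so the groups overlapped. The log2 fold change was 0.83 with a 95% interval from -0.85 to 2.50 (edgeR adjusted p = 0.6267). Within the sides it was 1.09 and 1.03, and with the term for the side 1.07 (SE 0.25, edgeR adjusted p = 0.007417). Without siFAM53C replicate 1 the sign turned, to -0.31. Blocking on the replicate numbers of the titles gave 0.25 (edgeR adjusted p = 0.7371). Blocking on those of the column names gave 0.91 and a call (edgeR adjusted p = 0.03037). The value was 1.45 without siFAM53C replicate 2, 1.33 without siCtrl replicate 1 and 0.46 without siCtrl replicate 3.

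The other BH3-only genes did not pass the threshold. BID, which carries death receptor signals to the mitochondrion once it is cut by CASP8, had 67.7, 72.4 and 70.9 CPM in siCtrl and 57.2 and 62.7 CPM in siFAM53C. Both siFAM53C libraries were below every control, and the log2 fold change was -0.23 (95% interval -0.48 to 0.015, edgeR adjusted p = 0.3223), with -0.29 and -0.18 inside the 2 sides. BAD, whose protein is held by 14-3-3 proteins while it is phosphorylated, had 25.7, 24.3 and 13.9 CPM in siCtrl and 28.2 and 26.1 CPM in siFAM53C. The siFAM53C libraries were again outside the control range, this time above it, at a log2 fold change of 0.35 (95% interval -0.24 to 0.94, edgeR adjusted p = 0.5609). Without siCtrl replicate 3, the lowest library, it was 0.13. Inside the 2 sides it was 0.18 and 0.90, the model that includes the side gave 0.48 (edgeR adjusted p = 0.05042), and a replicate block by titles gave 0.12. Of the exon bases of BAD, 404 of 1708 are shared with GPR137 on the opposite strand, and its value is uncertain if strand was not used in counting. BCL2L11, which encodes BIM, had 21.4, 24.2 and 30.9 CPM in siCtrl and 18.97 and 25.2 CPM in siFAM53C, with overlapping groups and a log2 fold change of -0.21 (95% interval -0.68 to 0.27). This was -0.022 without siFAM53C replicate 1, -0.038 without siCtrl replicate 3, -0.32 without siCtrl replicate 1 and -0.43 without siFAM53C replicate 2, and -0.26 and -0.29 inside the 2 sides. Of its 6742 exon bases, 727 are shared with MIR4435-2HG on the opposite strand.

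Of the effectors, BAK1 (ENSG00000030110, chromosome 6 of GRCh38, 33572547 to 33580293, minus strand) had the larger log2 fold change. It had 683, 511 and 406 counts in siCtrl and 1180 and 780 in siFAM53C. In CPM this was 29.0, 26.7 and 21.3 against 44.6 and 33.1, so every siFAM53C library exceeded every control. The log2 fold change was 0.60 (SE 0.18, 95% interval 0.17 to 1.02), which did not pass the threshold (unadjusted p = 0.01239, edgeR adjusted p = 0.1474). Within the sides it was 0.68 and 0.64. With the term for the side it was 0.66 (SE 0.11, edgeR adjusted p = 0.0007121), and over 17 alternatives (edgeR, DESeq2 and limma-voom) the adjusted p ranged from 0.0007121 to 0.6214, with 5 fits calling it, among them one with a single siFAM53C library, and the value was 0.36 without siFAM53C replicate 1. The pseudogenes BAK1P1 and BAK1P2 had at most 14 counts and 0 counts in a library.

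BAX (ENSG00000087088) had 122, 105 and 69.3 CPM in siCtrl and 132 and 91.8 CPM in siFAM53C. The highest library was siFAM53C replicate 1 and the lowest siCtrl replicate 3, and the groups overlapped. The log2 fold change was 0.18 (95% interval -0.45 to 0.80, edgeR adjusted p = 0.8097), with 0.22 and 0.40 within the sides. With the term for the side it was 0.29 and called (edgeR adjusted p = 0.03719). This call was lost when the dispersions were estimated without robust weights (edgeR adjusted p = 0.06068). A replicate block by titles turned the sign (-0.044, edgeR adjusted p = 0.88), and one by column names gave 0.25 (edgeR adjusted p = 0.1204). Without siFAM53C replicate 1 the log2 fold change was -0.11. It was -0.017 without siCtrl replicate 3, 0.36 without siCtrl replicate 1 and 0.41 without siFAM53C replicate 2.

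With the term for the side, then, 3 members (BAX, BAK1 and BBC3) were called higher and 1 (PMAIP1) lower, where 6.76% of all tested genes were called higher and 10.7% lower in that fit. The term was taken from the same libraries, so these calls are no independent evidence. Without that term, 2 members (BAK1 and BAD) had all siFAM53C libraries above all controls and 2 (PMAIP1 and BID) had them below, where 16.7% and 18.8% of all tested genes did so.

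**Figure D2:**
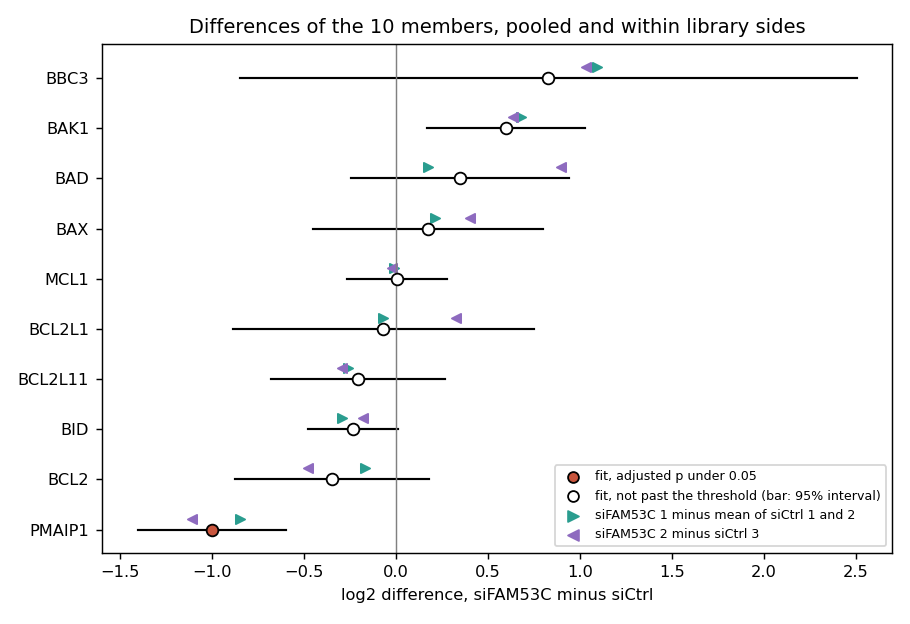
Log2 difference between siFAM53C and siCtrl (horizontal axis) for each member, ordered by size. Circles are the fit over 5 libraries with 95% intervals, filled red at an adjusted p under 0.05, and triangles are the differences within each side of the library split. Only the filled circle of PMAIP1 (-0.998) passed the threshold, and the triangles of BBC3 (1.09 and 1.03) and BAK1 (0.68 and 0.64) lay close together.

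The pro-survival genes gave no call. MCL1, whose short-lived protein is the main partner of NOXA, had the log2 fold change nearest to 0. It had 313, 277 and 323 CPM in siCtrl and 293 and 319 CPM in siFAM53C, and both siFAM53C values lay inside the control range. Its log2 fold change of 0.0066 had a 95% interval from -0.26 to 0.28, and its sign turned with the term for the side (-0.015), with -0.0093 and -0.018 inside the 2 sides. Of its 6222 exon bases, 328 are shared with ADAMTSL4-AS1 on the same strand.

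BCL2L1 had 211, 182 and 103 CPM in siCtrl and 187 and 129 CPM in siFAM53C. The control libraries alone spanned the siFAM53C values, and the log2 fold change was -0.067 (95% interval -0.89 to 0.75), with -0.070 and 0.33 inside the 2 sides. Its sign was not stable, being 0.095 with the term for the side and 0.0078 when only library totals were used for scaling, and running from -0.37 to 0.17 with single libraries left out. A large part of its exons, 1735 of 4197 bases, is shared with the antisense gene ABALON, so its value is uncertain if strand was not used in counting. BCL2, the gene that gave the family its name, had 13.8, 16.5 and 12.7 CPM in siCtrl and 13.5 and 9.08 CPM in siFAM53C, with a log2 fold change of -0.35 (95% interval -0.87 to 0.18) that was -0.67 without siFAM53C replicate 1, -0.095 without siFAM53C replicate 2 and -0.23 without siCtrl replicate 2. Inside the 2 sides it was -0.17 and -0.48.

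In 5 of the 10 members (BBC3, BCL2L1, BAX, BCL2L11 and MCL1) both differences between libraries of a condition were larger in size than the fitted difference between conditions, as they were in 38.3% of all tested genes. BBC3 differed by -1.67 on the log2 scale between siCtrl replicate 3 and the mean of siCtrl replicates 1 and 2, and by -1.73 between siFAM53C replicate 2 and replicate 1. The same pair of differences was -0.93 and -0.53 for BCL2L1 and -0.71 and -0.52 for BAX. BCL2L11 went the other way, with 0.44 and 0.41. Of the members whose difference between conditions was not exceeded by both, BAD had -0.84 and -0.12 and BAK1 had -0.39 and -0.43. In all 10 members the differences inside the 2 conditions had the same sign, where 69.0% of all tested genes did, and 7 of them were lower in siCtrl replicate 3 and siFAM53C replicate 2, where 34% of all tested genes were. The sides were defined from all tested genes, these included, so this is a description only. What the split stands for was not tested.

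**Figure D3:**
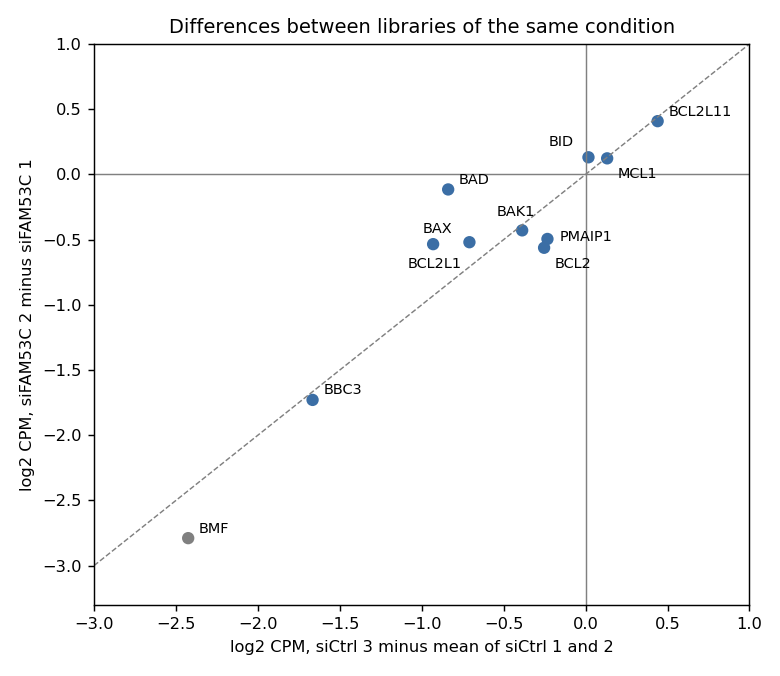
Log2 CPM difference of siCtrl replicate 3 from the mean of siCtrl replicates 1 and 2 (horizontal axis) against that of siFAM53C replicate 2 from replicate 1 (vertical axis), for the 10 members (blue) and BMF (grey). The dashed line marks equal differences. BBC3 (-1.67, -1.73) and BMF (-2.42, -2.79) lie far from 0 near that line, and MCL1 (0.13, 0.12) near the origin.

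Levels between genes were compared per length, as CPM per kilobase of annotated exon (RPKM). In siCtrl the order was MCL1 (48.9 ± 3.84 RPKM, SD, n = 3), BCL2L1 (39.3 ± 13.3), BAX (38.2 ± 10.5), PMAIP1 (23.0 ± 2.17), BID (15.9 ± 0.544), BAD (12.5 ± 3.76), BAK1 (11.6 ± 1.80), BCL2L11 (3.78 ± 0.725), BBC3 (1.44 ± 0.861) and BCL2 (1.14 ± 0.157). The control ranges of MCL1 and BCL2L1, of BCL2L1 and BAX, of BAD and BAK1, and of BBC3 and BCL2 overlapped, and those of the other neighbours did not. BCL2 had the lowest mean of the 10 transcripts per length, although BBC3 (0.559 RPKM) was below it (1.00 RPKM) in siCtrl replicate 3. Among the pro-survival members of the 10, MCL1 and BCL2L1 made up most of the summed RPKM. The level of BCL2L1, and any share that includes it, is uncertain if strand was not used in counting. In siFAM53C, PMAIP1 stood at 11.5 ± 2.77 RPKM (SD, n = 2) and ranked 7, behind BAK1 (17.6 ± 3.67, rank 4), BAD (15.9 ± 0.900) and BID (13.6 ± 0.874). This order holds for the means, since PMAIP1 (13.4 and 9.53 RPKM) and BID (12.95 and 14.2 RPKM) overlapped, as did BAK1 and BAD.

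The ratio of MCL1 to PMAIP1 on the RPKM scale was 2.03, 1.89 and 2.52 in siCtrl and 3.50 and 5.37 in siFAM53C, higher in both siFAM53C libraries than in each control. The ratio of BAX to BAK1 was 3.61, 3.36 and 2.79 in siCtrl and 2.52 and 2.37 in siFAM53C, lower in both. By role, the BH3-only genes took 27.2%, 29.5% and 30.5% of the summed RPKM of the 10 members in siCtrl and 23.3% and 24.8% in siFAM53C, and the effectors 27.1%, 26.2% and 22.3% against 33.3% and 28.5%. The pro-survival share overlapped between the conditions, at 45.7%, 44.3% and 47.3% against 43.4% and 46.7%. These ratios rest on the same values as the comparisons of single genes and were not tested.

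Genes with a pattern like that of PMAIP1 were sought over the 5 libraries, by the root mean square difference of log2 CPM after centring each gene on its mean, among 9301 genes with a mean of at least 10 CPM. The 3 closest were PTPRB (0.075), a receptor-type tyrosine phosphatase, LIMS1 (0.077), an adaptor of focal adhesions, and STAC (0.085). Their own log2 fold changes were -0.89, -0.95 and -0.93. Values near that of PMAIP1 follow from the way these genes were picked, and a shared control was not tested.

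Genes around the family were counted in 4 further lists. For these counts, the shares of all tested genes called lower and higher were 3.47% and 0.489% in edgeR, 10.5% and 6.61% without adjustment, 6.98% and 2.02% in DESeq2, and 10.7% and 6.76% in the edgeR model that includes the side. Of 13 further family genes, 7 had enough counts to be tested, with 0 called lower or higher by edgeR (0 at an unadjusted p under 0.05, and 0 by DESeq2) and a median log2 fold change of 0.043. The model that includes the side called 0 lower and 1 higher, BMF. The most abundant of them was BNIP3L, a mitophagy receptor, with 135 CPM in siCtrl and 119 CPM in siFAM53C and the most negative log2 fold change of the list, -0.18. The most positive was that of BOK, an effector-like member, at 0.23 (edgeR adjusted p = 0.3933), with 33.1, 36.5 and 34.8 CPM in siCtrl and 38.1 and 43.6 CPM in siFAM53C. The BH3-only gene BMF varied more between libraries than any of the 10 members, with 27.7, 28.8 and 5.19 CPM in siCtrl and 41.3 and 5.90 CPM in siFAM53C. Its low libraries were siCtrl replicate 3 and siFAM53C replicate 2. In the model that includes the side BMF had 0.42 (edgeR adjusted p = 0.04839), and without robust weights this was no call (edgeR adjusted p = 0.06561). BIK, HRK, BCL2A1, BCL2L10, BCL2L14 and BCL2L15 had too few counts.

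A further list holds genes of the mitochondrial pathway, namely caspases, their inhibitors, proteins released from mitochondria, the VDAC channels and a membrane fusion gene. Of these 18 genes, all tested, 1 was called lower and 0 higher by edgeR, with a median of -0.072. At an unadjusted p under 0.05, 3 were lower and 0 higher, DESeq2 called 2 lower and 0 higher, and the model that includes the side called 3 lower and 0 higher. The gene called in each was OPA1, which fuses inner mitochondrial membranes and shapes cristae. It had 131, 133 and 142 CPM in siCtrl and 92.4 and 93.5 CPM in siFAM53C, without overlap. Its log2 fold change of -0.54 (SE 0.099, edgeR adjusted p = 0.02656) was lost as a call when any library but siCtrl replicate 3 was left out (edgeR adjusted p from 0.1042 to 0.216 in those 4 fits), while the value itself stayed between -0.56 and -0.54. The most negative value of the list, -0.59, was that of the caspase gene CASP6, which did not pass the threshold (edgeR adjusted p = 0.1171), although its groups did not overlap and the model that includes the side called it (-0.55, edgeR adjusted p = 0.01517). BIRC5, an inhibitor of apoptosis that also acts in cell division, had 192, 223 and 192 CPM in siCtrl and 140 and 153 CPM in siFAM53C. Its log2 fold change of -0.47 did not pass in edgeR (adjusted p = 0.07944) and did in DESeq2 (adjusted p = 0.01552) and in the edgeR model that includes the side (-0.46, adjusted p = 0.002144). The apoptosome scaffold APAF1 (-0.076) and cytochrome c (CYCS, -0.068) had log2 fold changes within 1 standard error of 0. CASP9, the initiator caspase, had the most positive value of the list, 0.54, from few counts (82 to 116 in siCtrl, 222 and 134 in siFAM53C), and the most abundant gene, VDAC1, had -0.15, neither past the threshold.

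Among 21 regulators that act on the family, 20 were tested, 1 was called lower and 0 higher by edgeR (without adjustment, at a p under 0.05, 2 were lower and 2 higher, and DESeq2 called 1 lower and 0 higher). The model that includes the side called 3 lower (TMBIM6, YWHAQ and ATF4) and 1 higher (PIM1). The gene called in each was TMBIM6, known as BAX inhibitor 1, a membrane protein of the endoplasmic reticulum that restrains cell death. It had 19459, 17940 and 15455 counts in siCtrl and 6578 and 5861 in siFAM53C, or 826, 939 and 810 CPM against 249 and 249 CPM. The siFAM53C libraries were nearly equal and far below the controls. The log2 fold change was -1.79 (SE 0.13, edgeR adjusted p = 0.0005748), with -1.82 and -1.70 within the sides, and all 17 alternatives called it. The most abundant regulator by CPM, the 14-3-3 gene YWHAZ, had -0.17, that per length, the 14-3-3 gene YWHAQ (312 RPKM in siCtrl), had -0.33, and the most positive value, 1.74, belonged to TRIM17, with 1 to 17 counts per library. The median of the list was -0.18.

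Of 12 genes of the death receptor pathway, 11 were tested and 0 were called in either direction by edgeR (2 higher and 0 lower at an unadjusted p under 0.05, and 0 by DESeq2). The model that includes the side called 0 lower and 2 higher, the decoy receptor gene TNFRSF10D (0.33, edgeR adjusted p = 0.01094) and the adaptor gene TRADD (0.51, edgeR adjusted p = 0.02118). The median log2 fold change was 0.13. The most abundant, TNFRSF1A, a receptor for tumor necrosis factor, had 0.13, TNFRSF10A the most negative value (-0.41) and TNFRSF10C the most positive (0.61), the last from 15 to 37 counts per library.

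**Figure D4:**
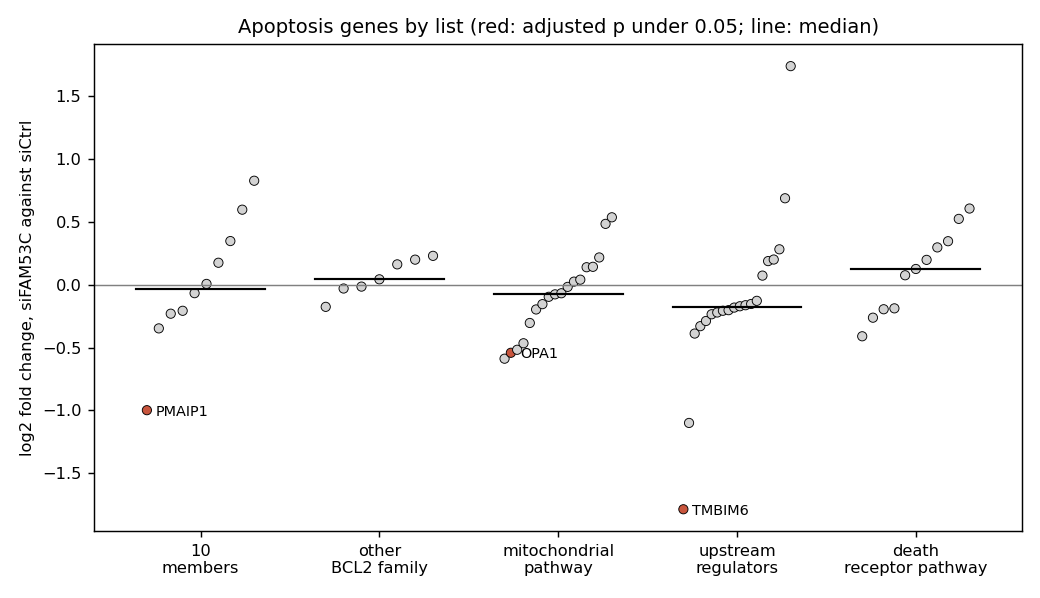
Log2 fold change of siFAM53C against siCtrl (vertical axis) for the tested genes of the 10 members and the 4 other lists, each sorted by value, with the median as a line. The 3 red points are PMAIP1 (-0.998), OPA1 (-0.54) and TMBIM6 (-1.79), and grey points did not pass the threshold.

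The genes that differed were set beside a sequence feature already known from these counts, the heptamer GACAAGA in the sense strand of 3′ UTRs, which came from a search over all heptamers in the same libraries and is no independent evidence here. The longest 3′ UTR of each gene in GENCODE was read. The heptamer occurs in 11.6% of 12075 tested genes with such a UTR, in 40.5% of the 524 called lower and in 7.0% of the 71 called higher. None of the 10 members, PMAIP1 included, holds it in the UTR read, and neither does OPA1. Only this heptamer was looked for in these genes, so an effect of the pool's sequences on PMAIP1 or OPA1 was not tested. TMBIM6 holds the heptamer once, and so does FAM53C. The sites are shown in the sense of the transcript with the heptamer in capitals, because they mark the sequence that TMBIM6 shares with the targeted gene. They lie at chr12:49764689-49764718 for TMBIM6 and chr5:138347127-138347156 for FAM53C, both on the plus strand of GRCh38.
TMBIM6 site: gtgccaagaatGACAAGAtattaaaaaaaa
FAM53C site: agactggccggGACAAGAtaaacggagctg

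Other tested genes of these lists that hold the heptamer were not called. BIRC3, an inhibitor of apoptosis, had a log2 fold change of -0.30 (SE 0.73), the ubiquitin ligase genes HUWE1 and FBXW7 had -0.15 and -0.29, YWHAZ had -0.17, and FAS, a death receptor, holds it at 2 sites and had 0.20. Whether any of these sites was bound by an siRNA of the pool was not tested.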

How the data were processed

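RNA-seq of RPE-1 cells gave a table of raw gene counts for 5 libraries, 3 siCtrl and 2 siFAM53C. The authors made the deposited counts by trimming paired reads with CutAdapt 2.10, running HISAT2 against hg38 in reverse-stranded mode and counting with featureCounts, for which the strand setting and annotation release are not given in the sources used here. Totals per library ran from 19260124 to 25615415, which limits precision for genes with few counts. Groups came from the sample labels. Positions, exon lengths and 3′ UTRs came from GENCODE 44 on GRCh38, and promoters from RefSeq (GRCh38.p14).

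The comparison used edgeR 4.0.16 under R 4.3.3 (filterByExpr with minimum count 10 and minimum total 15, TMM factors, condition only, quasi-likelihood test, Benjamini-Hochberg adjustment). Robust estimation of the dispersions was made the setting reported after call counts with and without it had been seen. log2 CPM used a prior count of 2. Alternatives were DESeq2 1.42.0, limma-voom (limma 3.58.1), other scalings and filters, replicate blocks, a term for the library split and libraries left out. All tools were tested on simulated data that held no split between libraries of a condition, so that test does not cover the split seen here. The members and lists were chosen with earlier results of these data known. Named were FAM53C, all members, the 3 genes most like a called member, and of each other list the called, most abundant, lowest and highest genes. APAF1, CYCS, BMF, BIRC5, YWHAQ, ATF4, PIM1, TNFRSF10D, TRADD and the genes holding the heptamer were added after their values were seen. Some genes of these lists are not reported here and are left out of the list counts.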

Additional observations from a re-analysis of the deposited data

How the results depend on the processing

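Of 170 fits of the 10 members under 17 alternatives, 140 kept the direction and the side of the threshold, 3 lost a call (PMAIP1, with single libraries left out), 10 gained one and 17 changed sign. The cause was not tested. Fits with a single siFAM53C library take their spread from the controls alone and assume that the lone library varies like them. The numbers of all genes lower and higher (533 and 75) were 890 and 257 with DESeq2, 961 and 375 when genes with few counts were kept, 856 and 355 with a replicate block by titles, 1350 and 642 with a replicate block by column names, 1636 and 1037 with the term for the library split, 1493 and 870 with that term and no robust estimation, and 1248 and 572 with only siCtrl replicates 1 and 2 against siFAM53C replicate 1. With library totals only, 121 were higher. With single libraries left out, 157 (without siFAM53C replicate 1) to 886 (without siCtrl replicate 3) were lower and 6 (without siCtrl replicate 2) to 414 (without siCtrl replicate 3) higher. Among the members, 0 to 1 were then lower. The members called higher numbered 1 when genes with few counts were kept (BAK1), 2 with the block by column names, 2 with siCtrl replicates 1 and 2 against siFAM53C replicate 1, 2 with the split term and no robust estimation (each time BAK1 and BBC3) and 3 with the split term (BAX too).

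Signs turned as follows. The log2 fold change of BAX was -0.044 with the block by titles, and -0.11 to 0.41 with single libraries left out. That of BBC3 was -0.31 to 1.45 with single libraries left out. BCL2L1 had 0.0078 with library totals only, 0.070 with the block by column names and 0.095 with the split term, with or without robust estimation, and -0.37 to 0.17 with single libraries left out. MCL1 had -0.057 with the block by column names, -0.015 with the split term, with or without robust estimation, -0.015 with siCtrl replicates 1 and 2 against siFAM53C replicate 1, and -0.059 to 0.061 with single libraries left out.

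Replicate numbers did not establish a pairing. Deviations from the condition means correlated at 0.169 and -0.285 for the pairs sharing a number in the titles, and at 0.169 and 0.371 for those sharing one in the column names. The deviations of both siFAM53C libraries mirror each other by construction, so these correlations are not independent of each other. Library totals in place of TMM factors moved the median log2 fold change of all tested genes from 0.016 to 0.087.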
